A study of Homo sapiens with 8 samples.

Results

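The genes described here receive, make, remove and export sphingosine 1-phosphate (S1P). They were chosen by name as the S1P receptor genes S1PR1, S1PR2 and S1PR3, the sphingosine kinase genes SPHK1 and SPHK2, the lyase gene SGPL1, the phosphatase gene SGPP1 and the exporter gene SPNS2. These 8 members were picked with their measured values in the same comparison known, so the values below are a description and carry no test. Each member had 1 row in the gene table of 29004 loci, and all 8 reached at least 1 FPKM (fragments per kilobase of exon, scaled to the number of mapped fragments) in both groups. RNA sequencing compared 4 LATS2 OE samples, treated with doxycycline at 125 ng/mL for 8 h, with 4 untreated samples. All samples came from the stable human podocyte line AB8/13, which is immortalized and was grown at 33 °C to 70% confluence, and all carried the same lentiviral, doxycycline-inducible construct for wild-type LATS2, a kinase of the Hippo pathway that acts on YAP. Every LATS2 OE sample received the drug and no untreated sample did, so the effects of doxycycline and of the construct cannot be told apart. The sources used here do not say whether the line is a single clone or whether separate cultures lie behind the samples of a group. The paper speaks of sample pairs, and how these were formed is not stated in the sources used here.

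S1P is a lipid signal. Sphingosine kinases phosphorylate sphingosine to S1P inside the cell, the exporter carries it out, and receptors of the G protein-coupled class on the cell surface bind it. S1P that stays inside is either turned back into sphingosine by a phosphatase or split irreversibly by the lyase. The receptors differ in the G proteins they use: S1PR1 signals through the Gi class, while S1PR2 and S1PR3 can also couple to other G protein classes, a route by which S1P is known to keep YAP in the nucleus. In the kidney, inherited loss of the lyase causes a steroid-resistant nephrotic syndrome in which podocytes are damaged.

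The table holds 1 pooled value per group, so no value belongs to a single sample, no SD or test over samples could be computed from these values, and no difference below is set against the spread between replicates. The depth behind each sample is unknown. In most cells of 1 FPKM or more the decimal point was lost, and its place was recovered from the log2 ratio listed for the gene. This fixed the ratio of the groups for 20626 of 20636 loci above 0 in both groups, but it often left the level open by a power of 10. Where this is so, each possible level is given. Loci with 1 FPKM or more in each group are called expressed loci below, and the term 1.5-fold line is used for a ratio of at least 1.5 in either direction. LATS2 itself stood at 53.1 or 531 FPKM in LATS2 OE cells, against 2.64 or 26.4 FPKM in untreated cells, which is 20.1-fold higher. Of 12 podocyte markers, 4 (SYNPO, PODXL, CD2AP and ACTN4) reached 1 FPKM in both groups, whereas 8 did not. WT1 stood at 0.412 FPKM in LATS2 OE cells and 0.413 FPKM in untreated cells. NPHS1, which encodes the slit diaphragm protein nephrin and is a defining marker of mature podocytes, was near 0, at 0.00616 FPKM in LATS2 OE cells and 0.00875 FPKM in untreated cells.

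S1PR1 stood apart from the other S1P genes. Its level was 5.11 or 51.1 FPKM in LATS2 OE cells, against 16.8 or 168 FPKM in untreated cells. Whichever level holds, S1PR1 was 3.28-fold lower in LATS2 OE cells, a log2 ratio of -1.71. Among the 12212 expressed loci, 12 had a lower ratio, which places S1PR1 at rank 13 from the bottom. In bulk samples like these, fewer cells that express a gene and less RNA per cell cannot be told apart. In the deposited table the S1PR1 row spans chromosome 1 from 101702305 to 101707076 of hg19 on its own, with no other gene in the span. The annotation places the protein-coding gene, which has 2 exons, on the plus strand from 101702421 to 101709269, so that the span of the row ends before the annotated gene does.

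**Figure D1:**
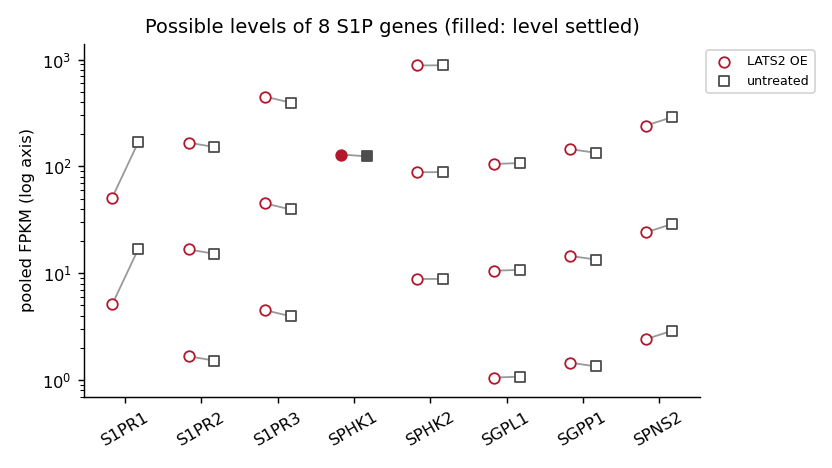
Pooled FPKM on a log axis for each of the 8 genes, with circles for LATS2 OE and squares for untreated cells joined by a line. Filled symbols mark the settled level of SPHK1, and open symbols show every level that the digits allow. The line slopes steeply for S1PR1 alone, at both of its possible levels in LATS2 OE cells, 5.11 or 51.1 FPKM, against 16.8 or 168 FPKM in untreated cells.

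The other receptors did not follow S1PR1. S1PR2, which couples to several classes of G protein, had 1.67, 16.7 or 167 FPKM in LATS2 OE cells, against 1.52, 15.2 or 152 FPKM in untreated cells, a log2 ratio of 0.14. S1PR3, the other broadly coupled receptor, had 4.51, 45.1 or 451 FPKM in LATS2 OE cells, against 3.95, 39.5 or 395 FPKM in untreated cells, a log2 ratio of 0.19 and the highest of the 8 members. Both values were above 0 and inside the 1.5-fold line. Relative to S1PR3, the S1PR1 transcript was 3.74-fold less abundant in LATS2 OE cells than without doxycycline, and relative to S1PR2 it was 3.61-fold less abundant. Both relative changes hold at every possible level, and both mainly restate the lower S1PR1 value. The share of S1PR1 among the receptor transcripts does depend on the open levels, so it cannot be given. S1PR2 is a gene of the minus strand, its row covers chromosome 19 from 10332109 to 10341948 of hg19, and the microRNA gene MIR4322 in the same span was listed at 0 in both groups. In the annotation DNMT1, on the same strand, also reaches into this span, whereas the row of DNMT1 in the table lies outside it. The row of S1PR3 on chromosome 9 (91605778 to 91620069, plus strand) also bears the name C9orf47, so its value is that of both names together.

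The kinase genes showed nearly equal levels in both groups. SPHK1, the mainly cytosolic kinase, is the only member whose level is settled, with 129 FPKM in LATS2 OE cells and 124 FPKM in untreated cells, with a log2 ratio of 0.06. At this level SPHK1 was higher than S1PR1 in LATS2 OE cells at either possible level of S1PR1. In untreated cells their order is not settled, since S1PR1 could be at 16.8 or at 168 FPKM there. SPHK2, the kinase found also in the nucleus and mitochondria, had 8.82, 88.2 or 882 FPKM in LATS2 OE cells and 8.84, 88.4 or 884 FPKM in untreated cells, a log2 ratio of -0.0039. The span of the SPHK2 row on chromosome 19 (49118583 to 49133663) is shared with RPL18, a ribosomal protein gene on the opposite strand whose log2 ratio was -0.0035, and in the annotation DBP, also on the opposite strand, reaches into it. The library kit named in the labels does not mark strand, so reads of overlapping parts of these genes cannot be told apart. The row of SPHK1 covers chromosome 17 from 74380690 to 74383941 and shares this span with no other gene. The annotated SPHK1 gene, on the plus strand, starts further upstream, at 74372665, and has the same end.

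The genes that remove S1P were likewise close to their untreated level. SGPL1, which encodes the lyase, had 1.05, 10.5 or 105 FPKM in LATS2 OE cells, against 1.07, 10.7 or 107 FPKM in untreated cells, a log2 ratio of -0.03. SGPP1, which encodes the S1P phosphatase of the endoplasmic reticulum, had 1.45, 14.5 or 145 FPKM in LATS2 OE cells, against 1.34, 13.4 or 134 FPKM in untreated cells, a log2 ratio of 0.11. Set against each other, SPHK1 over SGPL1 differed between the groups by 0.08 on the log2 scale and SPHK1 over SGPP1 by -0.06. The transcript ratio of SPHK1 to either removing enzyme was therefore within 1.06-fold of its untreated value. The row of SGPL1 covers chromosome 10 from 72575667 to 72640935. The annotated gene, with 15 exons on the plus strand, runs from 72575661 to 72655573, so that the row ends before the gene does. In the annotation a long noncoding RNA gene on the same strand also reaches into the span of this row. SGPP1 is annotated with 3 exons on the minus strand of chromosome 14 (64150934 to 64194783), and its row covers nearly the same span.

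SPNS2, which encodes the exporter of S1P, had the lowest ratio after S1PR1. It stood at 2.41, 24.1 or 241 FPKM in LATS2 OE cells, against 2.89, 28.9 or 289 FPKM in untreated cells, a log2 ratio of -0.26. This ratio lay inside the 1.5-fold line, and 6.73% of the expressed loci had a lower one. The row of SPNS2 on chromosome 17 (4402129 to 4458681) shares its span with MYBBP1A, a gene on the opposite strand that had a log2 ratio of -0.17, and without strand information their overlapping reads cannot be told apart.

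**Figure D2:**
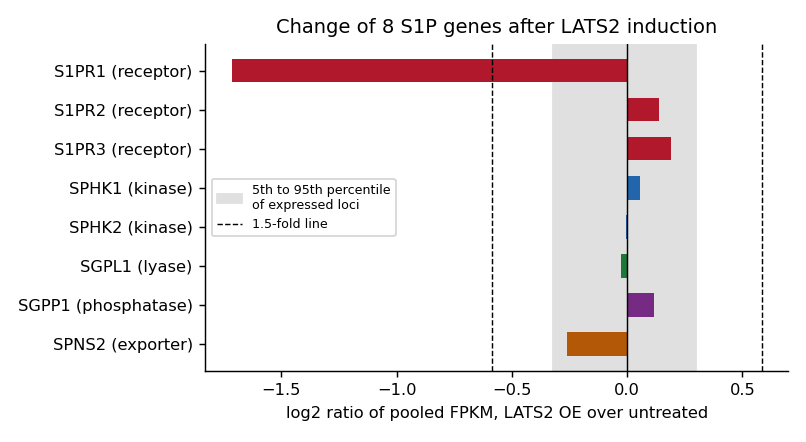
Log2 ratio of pooled FPKM, LATS2 OE over untreated, as bars for the 8 genes, coloured by role. The grey band runs from the 5th to the 95th percentile of all expressed loci (-0.32 to 0.30) and dashed lines mark 1.5-fold. S1PR1 reaches -1.71, and the other 7 bars lie within the band, between -0.26 and 0.19.

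Counted together, 1 of the 8 members was past the 1.5-fold line, S1PR1 in the downward direction, and 0 were past it in the upward direction. Among all expressed loci 3.17% were past the line, 1.85% downward and 1.32% upward. Since the members were chosen with these values in view, the count is not read against that share. The other 7 members ran in the order SPNS2, SGPL1, SPHK2, SPHK1, SGPP1, S1PR2 and S1PR3, with ratios between -0.26 and 0.19. With 1 pooled value per group, it cannot be said which neighbours in this order differ. The median of the 8 log2 ratios was 0.03, beside -0.0042 for all expressed loci.

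**Figure D3:**
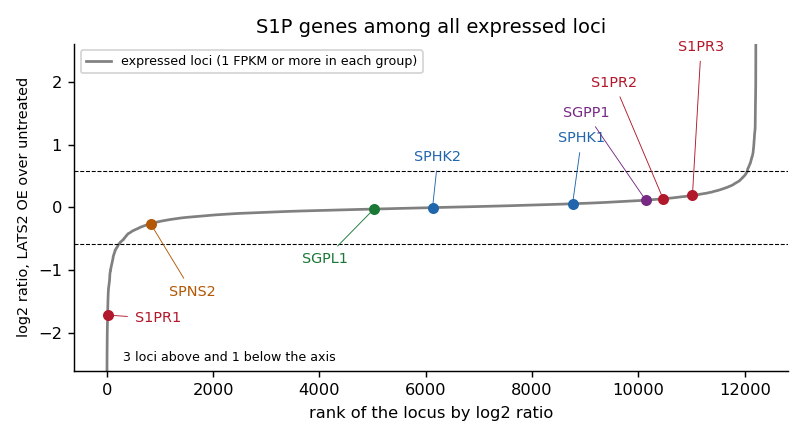
Log2 ratio of each expressed locus against its rank, with the 8 S1P genes as coloured points and dashed lines at 1.5-fold. S1PR1 sits at rank 13 of 12212 on the steep lower end of the curve, while the kinases, the lyase, the phosphatase, the other receptors and SPNS2 lie on its flat middle or shoulders. The axis ends at 2.6, with 3 loci above and 1 below it.

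The loci with a single gene name whose ratio was nearest to that of S1PR1 were AMOTL2, SNAPC1 and TGFB2. AMOTL2, which encodes a junction protein that binds YAP, had a log2 ratio of -1.71. SNAPC1, which encodes a subunit of the complex that starts small nuclear RNA transcription, had one of -1.69, and TGFB2, which encodes a transforming growth factor, one of -1.66. The likeness is that of log2 ratios over 1 pair of pooled values, and whether these genes share a cause was not tested.

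The promoter windows of the S1P genes were searched for the core motif of TEAD factors, the DNA-binding partners of YAP. The motif was taken as GGAATG or its reverse complement CATTCC, which do not overlap each other, on both strands of the RefSeq windows (250 bases before to 50 after a start site, GRCh38.p14). Of the 8 members, 6 had a window, 10 windows in all, and SGPP1 and SPNS2 were not matched. The motif was present in 14.0% of all 35116 windows of this length. It was found in 2 of the 10 member windows, 1 of SPHK1 and 1 of SPHK2, and in 0 of the 4 receptor windows. The S1PR1 window is printed whole because S1PR1 is the member with the large difference, and for the kinases 30 bases around the motif are shown, with the motif in capitals. The S1PR1 window lies at chr1:101236769-101237068 (plus strand). The same 300 bases occur once in GRCh37, from 101702325 to 101702624 of chromosome 1, just inside the span of the S1PR1 row. The start site of this window lies 270 bases inside the row, so no bases before the S1PR1 row were searched. The SPHK1 stretch lies at chr17:76383086-76383115 and the SPHK2 stretch at chr19:48624897-48624926, both on the plus strand.
S1PR1: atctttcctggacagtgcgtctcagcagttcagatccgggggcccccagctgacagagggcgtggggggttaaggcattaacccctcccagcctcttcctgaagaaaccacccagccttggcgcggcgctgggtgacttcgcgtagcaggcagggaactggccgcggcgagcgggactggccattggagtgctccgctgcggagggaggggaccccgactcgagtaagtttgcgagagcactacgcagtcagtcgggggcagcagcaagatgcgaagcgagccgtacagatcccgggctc
SPHK1: tgcaggacccatCATTCCgacacgcgccgc
SPHK2: ctctgggcctggGGAATGtgaggggcagga

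In SPHK1 the motif starts 106 bases before the start site of its window, and in SPHK2 120 bases before. In GRCh37 that SPHK1 start site is at 74379285, upstream of the span of the row, and the SPHK1 window whose start site is the first base of the row, 74380690, has no motif. The SPHK2 start site is at 49128286, well inside the span of its row. Neither kinase gene was past the 1.5-fold line, and S1PR1, which was, has no such letters in its window. Whether the motif bears on any of these ratios was not tested. A match is a description of the sequence, and the lack of a match says only that these letters are not in these 300 bases.

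Of the 5 remaining S1P genes on the list, 4 were below 1 FPKM in both groups. The exception was APOM, which encodes the plasma carrier of S1P. APOM has 7 rows, and only the first was read, with a log2 ratio of -0.07. S1PR5 had 0.0193 FPKM in LATS2 OE cells, against 0.00556 FPKM in untreated cells, a log2 ratio of 1.80 on values near 0. S1PR4, a receptor of blood cells, had 0.0399 FPKM in LATS2 OE cells and 0.0433 FPKM in untreated cells. SGPP2, another S1P phosphatase, had 0.334 FPKM in LATS2 OE cells and 0.374 FPKM in untreated cells. MFSD2B, the exporter of red blood cells and platelets, had 0.0264 FPKM in LATS2 OE cells and 0.0168 FPKM in untreated cells. S1PR1, S1PR2 and S1PR3 were thus the receptors above 1 FPKM, and SPNS2 was the exporter above it. S1PR1 is also a receptor of endothelial cells. All 10 endothelial markers on the list were below 1 FPKM in both groups, with a summed level of 0.382 FPKM in LATS2 OE cells and 0.348 FPKM in untreated cells, and PECAM1 and CDH5 at no more than 0.0271 FPKM in either group. The 6 leukocyte markers summed to 0.804 FPKM in LATS2 OE cells and 0.75 FPKM in untreated cells. Of 6 mesangial and stromal markers, 4 (PDGFRB, ACTA2, CNN1 and COL1A1) reached 1 FPKM in both groups, with log2 ratios between -0.19 and 0.21. Of 6 tubular markers, AQP1 alone reached it, with a log2 ratio of -0.04. Their part in the S1PR1 value was not tested.

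Among further listed sphingolipid and lipid signalling genes, UGCG and PLPP3 were the ones past the 1.5-fold line that reached 1 FPKM in a group. Of 79 further genes in 9 lists of sphingolipid metabolism and lipid receptor signalling, 78 were above 0 in both groups, 5 of them past the line upward and 3 downward. Over all 20626 loci above 0 in both groups, 8.67% were past the line upward and 6.61% downward. Of the 60 listed genes that had at least 1 FPKM in both groups, 1 was past the line, UGCG in the downward direction, beside 3.17% of all expressed loci, and their median log2 ratio was 0.03. UGCG encodes the enzyme that turns ceramide into glucosylceramide, and its log2 ratio was -0.74. PLPP3 (PPAP2B in the table), which encodes a surface phosphatase that removes the phosphate of S1P and lysophosphatidic acid, had 0.953 FPKM in LATS2 OE cells, against 1.56 FPKM in untreated cells, a log2 ratio of -0.71. The related genes PLPP1 and PLPP2 had ratios of 0.15 and 0.16. SPTLC2, a subunit of the serine palmitoyltransferase that starts sphingolipid synthesis, had a ratio of -0.43, inside the line. The other genes past the line, ACER1, SPTSSB, DEGS2, LPAR3, S1PR5 and MFSD2B, lay well below 1 FPKM in both groups. ACER1, a ceramidase of skin, had 0.00729 FPKM in LATS2 OE cells and 0.012 FPKM in untreated cells. DEGS2, a desaturase of ceramide synthesis, had 0.201 FPKM in LATS2 OE cells and 0.131 FPKM in untreated cells. SPTSSB, a small subunit of serine palmitoyltransferase, had 0.00565 FPKM in LATS2 OE cells and 0.00329 FPKM in untreated cells.

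The signalling genes downstream of the S1P receptors lay inside the 1.5-fold line, as most expressed loci did. All 16 genes for G protein subunits, exchange factors, small GTPases and their kinases had at least 1 FPKM in both groups and lay between -0.12 for GNA11 and 0.25 for RHOB, with 0 past the line in either direction, beside 3.17% of expressed loci. Their median log2 ratio was 0.03. Of 10 genes that act on S1P receptors or their transcription, 0 were past the line, beside 8.67% upward and 6.61% downward of all loci above 0. KLF2, a transcription factor that activates S1PR1 in mouse T cells, had a log2 ratio of -0.34, and 4.73% of expressed loci were lower. ARRB1, an arrestin that uncouples receptors from their G proteins, had one of 0.44, and 97.5% of expressed loci were lower. RGS4 had the highest ratio of this list, 0.45, with 0.301 FPKM in LATS2 OE cells and 0.22 FPKM in untreated cells. The part of these genes in the S1PR1 value was not tested. CD69, which retains S1PR1 inside lymphocytes, was at 0.00345 FPKM in LATS2 OE cells and 0.00441 FPKM in untreated cells.

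Like S1PR2 and S1PR3, and unlike S1PR1, the receptors for lysophosphatidic acid had ratios above 0. This related lipid also signals through G proteins. All 7 genes of this list, LPAR1 to LPAR6 and ENPP2, the gene of the lipid's producing enzyme, had log2 ratios above 0, between 0.14 and 0.59. Of the expressed loci, 48.4% had a ratio above 0, a share that was not computed for loci at lower levels. The 5 genes of the list at that level were LPAR1 (0.40), LPAR2 (0.32), LPAR5 (0.42), LPAR6 (0.14) and ENPP2 (0.16), all inside the 1.5-fold line. LPAR3, with a ratio of 0.59, was the single gene of this list past the line, with 0.117 FPKM in LATS2 OE cells and 0.0776 FPKM in untreated cells. LPAR4, with a ratio of 0.50, was also low, at 0.127 FPKM in LATS2 OE cells and 0.0893 FPKM in untreated cells.

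**Figure D4:**
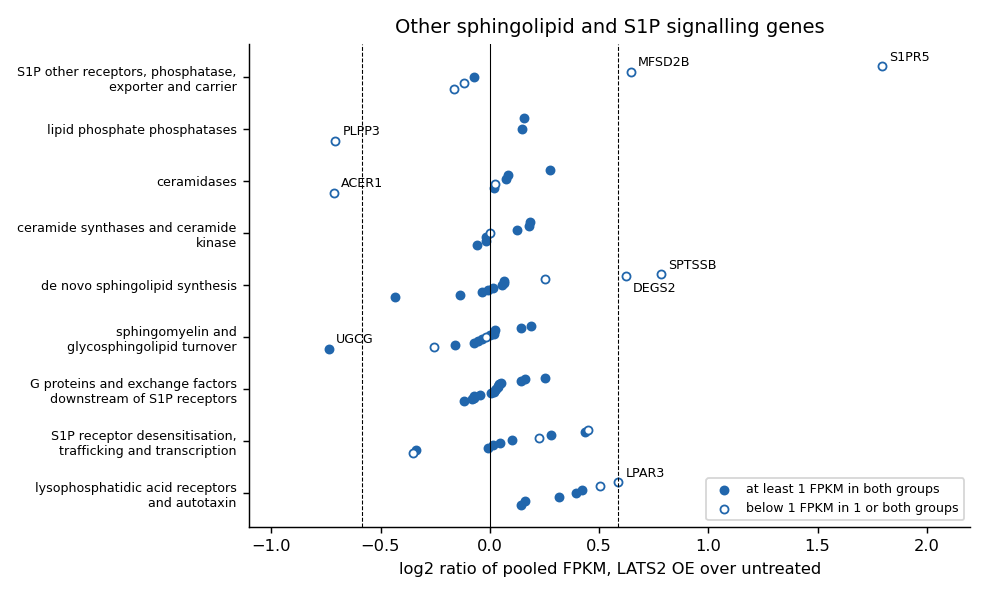
Log2 ratio of pooled FPKM, LATS2 OE over untreated, for 78 genes of 9 lists, 1 point per gene. Filled points had at least 1 FPKM in both groups, open points did not, dashed lines mark 1.5-fold and genes past them are named. UGCG is the only filled point past a line, and all 7 points of the lysophosphatidic acid list lie above 0.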

How the data were processed

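RNA of 4 LATS2 OE and 4 untreated samples was sequenced after poly(A) selection. Per the labels and the methods of the paper, the authors used bcl2fastq and FastQC, trimmed reads with Trimmomatic 0.33, mapped them to hg19 with TopHat, and derived FPKM values, pooled to 1 per group and locus, with the Cufflinks package. Neither the annotation nor versions of TopHat and Cufflinks are known here. The span given with a row can cover neighbouring genes, and 34.2% of all rows share theirs with another row.

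The deposited table also holds 5 columns of the authors' own comparison, namely a log2 ratio, the test's statistic, p-value and q-value, and a call. None was used as a result. The log2 column alone was read, as a key to where the decimal points of the FPKM cells belong. Cells of 1 to 1000 with 3 decimals were taken as digit strings whose point had moved to before the last 3 digits, and pairs of levels were kept whose log2 ratio fitted the key within 0.002. Of the loci with 1 ratio, 8878 had 1 possible level, 2160 had 2 and 9588 had 3. The step was tested on simulated data made by the same assumed loss, which checks the arithmetic and not whether the points were lost in this way. Ratios were then computed from the restored FPKM values, with no pseudocount, using Python 3.11.15 with pandas 2.3.3 and numpy 2.4.6. A change of 1.5-fold was used as a line and not as a test. Pseudocounts, minimum levels, other lines, centring on the median, the tolerance and the loci of several names were varied.

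The members and lists were chosen with earlier results of these data known. Named genes are the members, LATS2, up to 4 genes per list past 1.5-fold and the 3 loci nearest in ratio to S1PR1, and other genes were named after their values had been seen. Gene coordinates and exon numbers came from GENCODE v44 lifted to GRCh37, the build of hg19, and promoter windows from RefSeq. The receptor proteins were not analysed here.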

Additional observations from a re-analysis of the deposited data

How the results depend on the processing

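S1PR1 remained past the line and the other 7 members inside it under each of the 9 alternatives, apart from S1PR3, which has no value when loci of several names are left out. The log2 ratio of S1PR1 ran from -1.71 to -1.54, the value with 1 FPKM added at its lower possible level. The counts of the listed pathway genes past the line, 5 upward and 3 downward, depend on low genes. Upward they were 0 with a pseudocount of 0.1 or 1 FPKM, 0 at a minimum of 1 FPKM and 1 at a minimum of 0.1 FPKM. Downward they were 0 with a pseudocount of 1 FPKM and 1 at a minimum of 1 FPKM. A lower line of 0.32 on the log2 scale gave 10 upward and 6 downward, and a 2-fold line 1 upward and 0 downward. Where a level was open, its lowest option was used with a pseudocount, which shrinks a ratio most. Of the ratios of single genes under the alternatives, 134 stayed on their side of the line, 21 did not, and 0 changed sign past it. Leaving out single replicates was not run because the table holds pooled values. No paired analysis was possible because the columns carry no sample or replicate number, although the paper analysed changes over sample pairs.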
